A study of Mus musculus with 8 samples.

Results

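The simple epithelial keratins Krt7, Krt8, Krt18, Krt19, Krt20, Krt23 and Krt80 were examined in BMEL cells, a bipotential line derived from mouse embryonic liver. They were taken by symbol from the table of normalised expression, and 7 of 7 were among its 18671 genes. RNA-seq was performed 48 h after transfection, in 4 samples that received pIGrhl2 and 4 that received the control vector pcDNA3, named pcDNA here. The pIGrhl2 plasmid expresses a flag-tagged human cDNA of GRHL2, a grainyhead-like transcription factor of epithelial cells, from an EEF1A1 promoter, and it also expresses enhanced green fluorescent protein. Both groups came from the same line grown in the same medium on collagen. The plasmids therefore differed in promoter and reporter as well as in GRHL2, and these parts of the comparison cannot be told apart.

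Keratins form the intermediate filaments of epithelial cells. A filament is built from equal parts of an acidic type I and a basic type II chain, so that each epithelium expresses members of both classes, and unpaired chains are degraded. Krt8 (type II) and Krt18 (type I) are the pair of simple epithelia and the sole keratin pair of adult hepatocytes, whereas bile duct cells (cholangiocytes) add Krt7 (type II) and Krt19 (type I). The comparison of these genes thus asks how far the keratin make-up of a bipotential liver cell moved when GRHL2 was supplied.

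Krt7 was the member that rose, by 1.36-fold, from an already high level. Krt8, Krt18 and Krt19, the most abundant members, differed between the groups by 0.060 to 0.16 on the log2 scale and did not pass the test with all samples (limma, adjusted p under 0.05). Krt20, Krt23 and Krt80 did not pass it either, with log2 differences of 0.11 to 0.28. In total 1 of 7 members was called higher and 0 lower, beside 10.5% of all genes called higher and 5.91% called lower. At an unadjusted p under 0.05, 3 were higher and 0 lower, beside 18.4% and 12.7% of all genes. All 7 differences were above 0, as were those of 10061 of the 18671 genes, with a median of 0.14 against 0.0066 over all genes. Within replicates 3 and 4 alone, the differences of Krt8, Krt18 and Krt23 were below 0. A model that takes the replicate number as a block called 3 of 7 higher (Krt7, Krt19 and Krt80), beside 18.2% of all genes higher and 13.9% lower under that model.

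Levels are given throughout as log2 expression per transcript length, in which 1 unit is a doubling, and differences as pIGrhl2 less pcDNA on that scale. Mean values are followed by the SD over 4 samples. The study describes the 4 samples of a group as independent biological replicates, while the labels give only their numbers. Replicates 1 and 2 stood apart from replicates 3 and 4 in both groups, and differences within each of these pairs of replicates are therefore given beside the pooled ones. The endogenous gene Grhl2 had a level of 4.53 ± 0.12 in pcDNA and 6.24 ± 0.55 in pIGrhl2 samples, a log2 difference of 1.71 (SE 0.22, limma adjusted p = 0.00100). Reads of the human cDNA that align to the mouse gene cannot be told apart from its own transcripts there. In bulk RNA, more cells that express a gene and more RNA per cell cannot be told apart either, nor can transfected cells from those that took up no plasmid.

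The type II genes Krt80, Krt7 and Krt8 lie with the type I gene Krt18 in the keratin cluster of mouse chromosome 15, and the type I genes Krt20, Krt23 and Krt19 in that of chromosome 11. In the GRCm38 annotation (GENCODE M21) the first cluster held 26 keratin genes, 16 of them in the table, and the second held 27, with 15 in the table. Krt8 and Krt18, which pair as proteins, are 23697 bp apart and read from opposite strands with no annotated gene between them.

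Promoters were compared because Krt7 was called higher while Krt8 and Krt18, at the other end of the same cluster, were not. Sequences are from RefSeq on GRCm38.p6, from 250 bases before to 50 bases after the annotated start, and 5 of 7 members had one (Krt7, Krt8, Krt18, Krt20 and Krt23). They are printed 5′ to 3′ on the strand of the gene, and capitals mark matches to a GC box (GGGCGG) or a TATA box (TATAAA) on either strand. The Krt7 window is chr15:101412153-101412452 on the plus strand, the Krt8 window chr15:102004293-102004592 on the minus strand and the Krt18 window chr15:102027966-102028265 on the plus strand. Starts in RefSeq can differ from the limits of the GENCODE gene, and the Krt7 window lies wholly within those limits (101411043 to 101430313).
Krt7: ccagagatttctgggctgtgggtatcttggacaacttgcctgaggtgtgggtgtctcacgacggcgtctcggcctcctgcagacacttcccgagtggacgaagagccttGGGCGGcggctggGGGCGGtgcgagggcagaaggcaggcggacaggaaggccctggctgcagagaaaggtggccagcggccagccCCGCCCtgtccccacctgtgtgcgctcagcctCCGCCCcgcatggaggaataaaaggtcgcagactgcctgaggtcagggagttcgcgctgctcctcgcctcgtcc
Krt8: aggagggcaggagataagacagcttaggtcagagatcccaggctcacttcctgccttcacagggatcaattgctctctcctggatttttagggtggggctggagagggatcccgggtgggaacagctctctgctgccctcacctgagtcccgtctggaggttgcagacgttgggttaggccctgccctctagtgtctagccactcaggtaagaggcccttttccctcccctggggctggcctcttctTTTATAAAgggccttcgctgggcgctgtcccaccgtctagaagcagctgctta
Krt18: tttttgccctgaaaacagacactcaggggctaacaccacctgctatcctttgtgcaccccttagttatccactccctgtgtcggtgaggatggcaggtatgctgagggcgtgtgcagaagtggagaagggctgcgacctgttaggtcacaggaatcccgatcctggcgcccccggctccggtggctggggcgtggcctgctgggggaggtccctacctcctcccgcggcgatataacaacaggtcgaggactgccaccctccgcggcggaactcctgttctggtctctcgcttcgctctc

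The Krt7 promoter had the highest GC content of these 5, at 66.3% against a median of 52.7% over 32851 RefSeq promoters, and it held 4 GC boxes, a motif found in 35.7% of those promoters. The boxes began 141 and 128 bases upstream of the start on the strand of the gene, and 56 and 24 bases upstream on the other strand. Krt8 had a TATA box whose first base lies just before the annotated start, overlapped by its reverse-strand match, and Krt20 had one 29 bases upstream, whereas 13.6% of all promoters held a TATA box. Krt18 and Krt23 had no match to either motif. The grainyhead motif AACCGGTT was in none of the 5 windows and in 0.146% of all promoters. Its relaxed form AACNNGTT, which includes the former, was also in none of the 5 and in 4.20% of all, and the AP-1 motif TGANTCA in none and 7.81%. These matches describe the letters of these windows alone.

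Krt7 (ENSMUSG00000023039; GRCm38 chromosome 15, 101411043 to 101430313, plus strand, 9 exons in its longest coding transcript) encodes a type II keratin of ductal and glandular epithelia and is a usual marker of cholangiocytes. Its level was 12.85, 12.60, 12.94 and 12.78 in pcDNA replicates 1 to 4, and 13.27, 13.28, 13.22 and 13.17 in pIGrhl2 replicates 1 to 4. Every pIGrhl2 sample was above every pcDNA sample, and the pIGrhl2 samples were closer to each other than the pcDNA samples were. The mean went from 12.79 ± 0.14 to 13.23 ± 0.047, a log2 difference of 0.44 (SE 0.066, 95% interval 0.29 to 0.59, limma adjusted p = 0.00201). On the linear scale this is 1.36-fold, with an interval of 1.23 to 1.50. The exact permutation test over the 8 samples gave p = 0.0286 (two-sided), the smallest that 4 against 4 samples can give.

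The rise of Krt7 was present in each replicate number. The difference was 0.42, 0.67, 0.28 and 0.39 for replicates 1 to 4, or 0.55 within replicates 1 and 2 and 0.34 within replicates 3 and 4. Krt7 was called higher in all 19 alternative analyses, with differences of 0.34 to 0.55 and adjusted p-values (limma) of 0.000458 to 0.0273. An antisense gene (Gm671) overlaps Krt7. Counting did not use strand, and whether reads from the overlap were left out or counted for Krt7 cannot be told from the values.

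**Figure D1:**
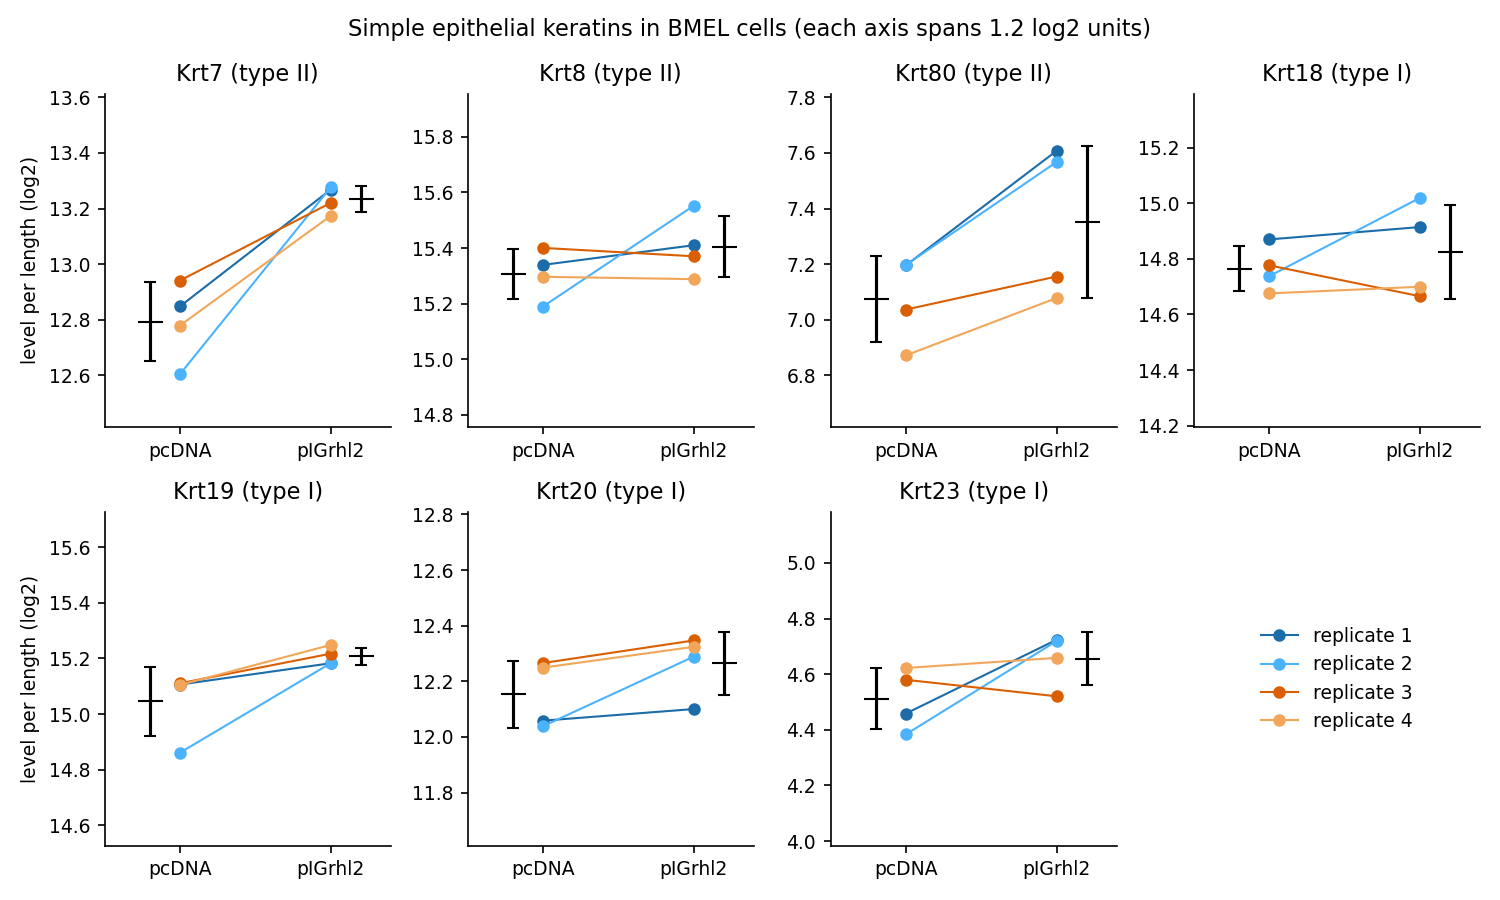
Level per transcript length (log2) of each simple epithelial keratin in the 4 pcDNA and 4 pIGrhl2 samples. Lines join samples with the same replicate number, horizontal marks are means and error bars are SD (n = 4), and each vertical axis spans the same range. Krt7 rose on every line and its groups do not overlap, whereas the lines of Krt8 and Krt18 rise for replicates 1 and 2 and are flat or fall for replicates 3 and 4, apart from a rise of 0.024 for Krt18 in replicate 4.

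Krt8 (ENSMUSG00000049382; GRCm38 chromosome 15, 101996698 to 102004482, minus strand, 9 exons) encodes the type II keratin that every simple epithelium uses. Its level was 15.34, 15.19, 15.40 and 15.30 in the pcDNA samples, and 15.41, 15.55, 15.37 and 15.29 in the pIGrhl2 samples. The groups overlapped, and pIGrhl2 was the higher for replicates 1 and 2 only. Krt8 had the rank 12 among 18671 genes by level in pcDNA, the highest of the members. The log2 difference was 0.099 (SE 0.060, 95% interval -0.035 to 0.23, limma adjusted p = 0.300), so a rise as large as that of Krt7 lies outside its interval. Within replicates 1 and 2 it was 0.22, and within replicates 3 and 4 it was -0.019. Over the samples left out it was 0.050 to 0.14, lowest without pIGrhl2 replicate 2. The annotation has 1 named Krt8 pseudogene and an overlapping non-coding gene on the other strand (Gm36026). Whether reads shared with either were left out or counted for Krt8 cannot be told from the values.

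Krt18 (ENSMUSG00000023043; GRCm38 chromosome 15, 102028180 to 102032027, plus strand, 7 exons) encodes the type I partner of Krt8. In pcDNA replicates 1 to 4 it was at 14.87, 14.74, 14.78 and 14.68, and in pIGrhl2 replicates 1 to 4 at 14.91, 15.02, 14.67 and 14.70. The highest and the lowest of the 8 values were both pIGrhl2 samples. The difference was 0.060 (SE 0.078, 95% interval -0.11 to 0.23, limma adjusted p = 0.650), the smallest among the members. It was 0.16 within replicates 1 and 2 and -0.043 within replicates 3 and 4, and without pIGrhl2 replicate 2 it was -0.0049. The direction of Krt18 thus depended on that sample.

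Krt19 (ENSMUSG00000020911; GRCm38 chromosome 11, 100140810 to 100148665, minus strand, 6 exons in its longest coding transcript) encodes the smallest type I keratin, which lacks most of the tail and, like Krt7, is a usual marker of cholangiocytes. It was at 15.11, 14.86, 15.11 and 15.10 in the pcDNA samples, and at 15.18, 15.18, 15.22 and 15.25 in the pIGrhl2 samples. All 4 pIGrhl2 samples were above all 4 pcDNA samples, as for 2 of 7 members and 14.3% of all genes. Pooled, the difference was 0.16 (SE 0.055, 95% interval 0.039 to 0.29) and did not pass the test (limma adjusted p = 0.0732), while the exact permutation test gave p = 0.0286 (two-sided). With the replicate block the adjusted p of limma was 0.0109. Within replicates 1 and 2 the difference was 0.20, and within replicates 3 and 4 it was 0.13.

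The spread of Krt19 came mainly from pcDNA replicate 2. The other pcDNA samples lay within 15.10 to 15.11. Without pcDNA replicate 2 the difference was smaller, 0.10, and was called (limma adjusted p = 0.0277). Of the 19 alternative analyses 6 called Krt19, with adjusted p-values (limma) between 0.00485 and 0.201 over all of them.

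Krt20 (ENSMUSG00000035775; GRCm38 chromosome 11, 99428403 to 99438150, minus strand, 8 exons) encodes a type I keratin best known from intestinal epithelium and the urothelium. Its level was 12.06, 12.04, 12.27 and 12.25 in pcDNA, and 12.10, 12.29, 12.35 and 12.32 in pIGrhl2. Each pIGrhl2 sample was above the pcDNA sample of its own number, but the groups overlapped because replicates 3 and 4 were the higher in pcDNA. The difference was 0.11 (SE 0.072, 95% interval -0.050 to 0.27, limma adjusted p = 0.329). It was 0.15 within replicates 1 and 2 and 0.078 within replicates 3 and 4, and no alternative called it. Over the samples left out it was 0.074 to 0.17, lowest without pcDNA replicate 2.

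Krt80 (ENSMUSG00000037185; GRCm38 chromosome 15, 101347444 to 101370162, minus strand, 8 exons in its longest coding transcript) encodes a type II keratin found in many epithelia. Its level was 7.20, 7.20, 7.04 and 6.87 in pcDNA replicates 1 to 4, and 7.61, 7.57, 7.16 and 7.08 in pIGrhl2 replicates 1 to 4. In each group replicates 1 and 2 were above replicates 3 and 4, and pIGrhl2 replicates 3 and 4 were below pcDNA replicates 1 and 2. The pooled difference of 0.28 had an SE of 0.13 and a 95% interval of -0.0093 to 0.56 (limma adjusted p = 0.174). With the replicate block the interval was 0.15 to 0.40 (limma adjusted p = 0.00504). The difference was 0.39 within replicates 1 and 2 and 0.16 within replicates 3 and 4, and all 4 replicate numbers had the higher value in pIGrhl2. An antisense gene (Gm35853) overlaps Krt80.

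Krt23 (ENSMUSG00000006777; GRCm38 chromosome 11, 99477974 to 99493137, minus strand, 8 exons) encodes a type I keratin that is scarce in healthy liver and induced in liver injury. It was the lowest member, at 4.46, 4.38, 4.58 and 4.62 in pcDNA and 4.72, 4.72, 4.52 and 4.66 in pIGrhl2. Only pIGrhl2 replicate 3 fell within the range of the control samples. The difference of 0.14 (SE 0.063, 95% interval 0.0040 to 0.28) did not pass the test after adjustment (limma adjusted p = 0.150). It was 0.30 within replicates 1 and 2 and -0.011 within replicates 3 and 4.

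Replicate 2 gave the largest difference between the groups for 6 of 7 members, the exception being Krt80, where replicate 1 did. Grhl2 itself differed by 1.61, 2.38, 1.23 and 1.61 for replicates 1 to 4, so replicate 2 also had the largest and replicate 3 the smallest difference in this row, which can hold reads of the plasmid. For Krt7, Krt8, Krt18, Krt23 and Krt80 the smallest difference was likewise that of replicate 3, but for Krt19 and Krt20 it was that of replicate 1. The lowest pcDNA sample was replicate 2 for Krt7, Krt8, Krt19, Krt20 and Krt23. Among pIGrhl2 samples, Krt7 was at 13.27 in replicate 1 and 13.28 in replicate 2, and Krt19 was at 15.18 in both. Whether the keratins followed the level of GRHL2 was not tested.

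**Figure D2:**
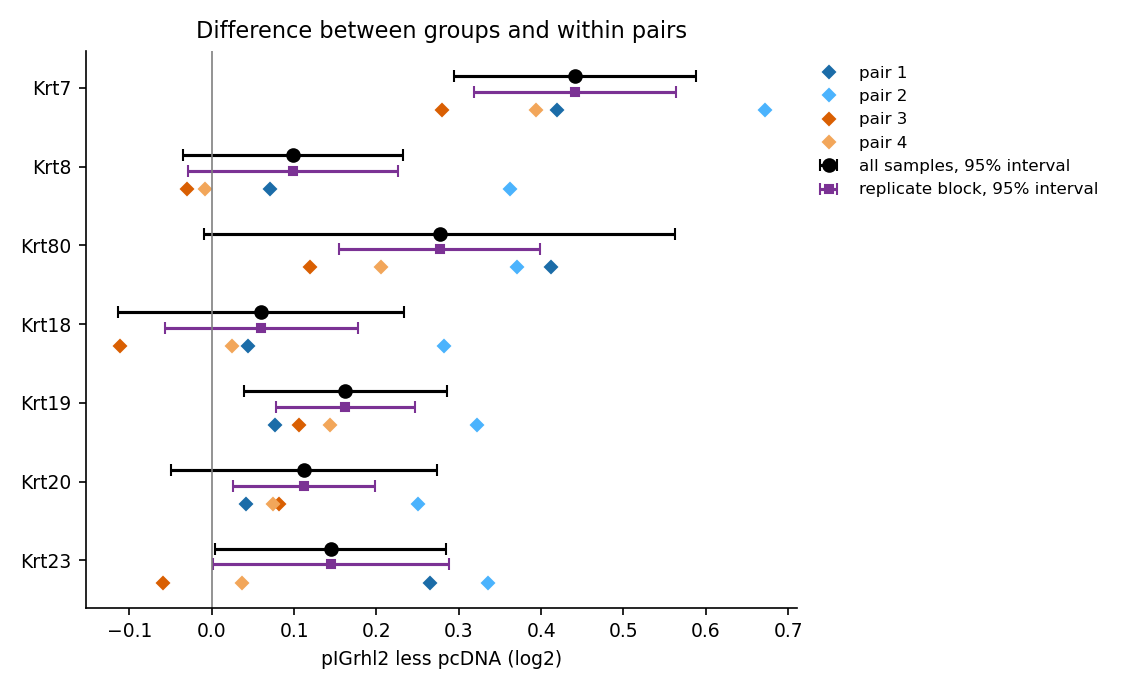
Difference of pIGrhl2 less pcDNA (log2) for each simple epithelial keratin. Black circles and bars are the estimate and 95% interval over all samples, purple squares and bars the same with the replicate block, and diamonds the difference within each replicate number. The intervals of Krt7, Krt19 and Krt23 lie above 0 in both models, and the block narrows that of Krt80 most, to 0.15 to 0.40.

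By level per length, the members fell into 3 tiers in pcDNA samples. Krt8 (15.31), Krt19 (15.05) and Krt18 (14.76) were at the top, with ranks of 12, 19 and 30 among 18671 genes. Krt7 (12.79, rank 214) and Krt20 (12.15, rank 371) formed the middle. Krt80 (7.08) lay near the median of all genes, 6.44, and Krt23 (4.51) below it. Both classes were thus represented among the most abundant transcripts of these liver cells, by Krt8 for type II and by Krt18 and Krt19 for type I.

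Neighbours in this order did not overlap between samples, other than Krt19 and Krt18 in pcDNA, whose ranges touched at 14.86 and 14.87, and Krt19 was still the higher in each of the 4 samples. The order was the same in pIGrhl2 samples, where no ranges of neighbours overlapped. It rests on the deposited lengths, which are means over all transcripts of a symbol. With the longest coding transcript instead (GENCODE M21), Krt19 fell to 14.36, below Krt18, and Krt7 to 11.66, below Krt20 at 12.15. Differences between groups do not involve the length.

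The make-up of the keratin pool was described as the share of each member in the summed linear level of all 7. Krt8 held 35.5% ± 0.48 in pcDNA and 34.7% ± 1.09 in pIGrhl2 samples, Krt19 held 29.7% ± 1.09 and 30.3% ± 2.03, and Krt18 held 24.4% ± 1.43 and 23.2% ± 1.70. The share of Krt7 was 6.22%, 5.93%, 6.57% and 6.18% in pcDNA replicates 1 to 4 and 7.82%, 7.43%, 7.86% and 7.70% in pIGrhl2 replicates 1 to 4. The values of Krt7 did not overlap, with means of 6.23% ± 0.27 and 7.70% ± 0.20, while those of Krt8, Krt18 and Krt19 did. With the longest coding transcript of each member as its length, the share of Krt7 was 3.33% ± 0.15 in pcDNA and 4.17% ± 0.14 in pIGrhl2, again with no overlap. With the deposited lengths, Krt20 held 4.0% ± 0.29 and 3.95% ± 0.40, Krt80 held 0.119% and 0.132%, and Krt23 held 0.0200% and 0.0202%.

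Within the type II class, Krt7 gained on Krt8. The level of Krt7 less that of Krt8 was -2.49, -2.59, -2.46 and -2.52 in pcDNA replicates 1 to 4, and -2.14, -2.28, -2.15 and -2.11 in pIGrhl2 replicates 1 to 4, with no overlap. Against Krt19, the other marker of cholangiocytes, Krt7 also stood higher in all pIGrhl2 samples, at -1.97 ± 0.079 against -2.25 ± 0.064. Within type I, Krt19 less Krt18 was 0.28 ± 0.13 in pcDNA and 0.38 ± 0.20 in pIGrhl2, with overlap. The summed type II level less the summed type I level was -0.47 ± 0.039 in pcDNA and -0.44 ± 0.060 in pIGrhl2, and these overlapped too. These are sums over the members and were given no test.

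**Figure D3:**
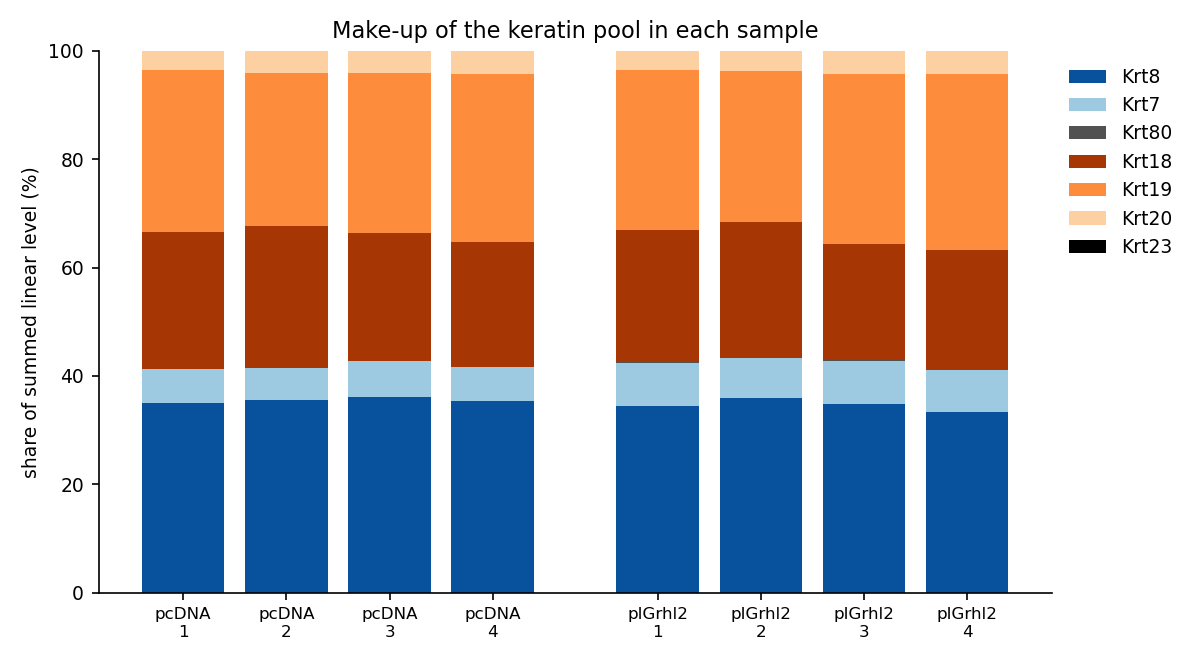
Share of each simple epithelial keratin in their summed linear level (%), for each of the 8 samples. Type II members are at the bottom, with Krt8 and Krt7 in blue and Krt80 in grey. Type I members are above, with Krt18, Krt19 and Krt20 in red to orange and Krt23 in black. The band of Krt7 is wider in all 4 pIGrhl2 samples (7.43% to 7.86%) than in the 4 pcDNA samples (5.93% to 6.57%), and the bands of Krt80 and Krt23 are too thin to be seen.

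The log2 of the summed level of the 7 members was 16.85, 16.68, 16.87 and 16.79 in pcDNA replicates 1 to 4 and 16.94, 17.03, 16.89 and 16.87 in pIGrhl2 replicates 1 to 4. The groups met at 16.87, with the lowest pIGrhl2 sample just above the highest pcDNA sample. The members held 0.989% ± 0.051 of the summed level of all genes in pcDNA and 1.10% ± 0.045 in pIGrhl2.

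Across the 8 samples, deviations from the group means showed which members varied together. Pearson's r was 0.883 between Krt18 and Krt80, 0.813 between Krt7 and Krt8, 0.743 between Krt7 and Krt19 and 0.722 between Krt8 and Krt18, whereas it was -0.759 between Krt20 and Krt80 and -0.477 between Krt18 and Krt20. Krt80 was higher in replicates 1 and 2 than in replicates 3 and 4 of both groups, Krt20 was lower in them, and the mean of Krt18 was higher in them by 0.077 in pcDNA and 0.28 in pIGrhl2, so these values carry the division of the samples. The 3 genes most like each member, among 10973 genes with a mean level of at least 5, were Tmem238, Fgf18 and Rps3a1 for Krt7 (r = 0.971 to 0.962). For Krt8 they were Tmem138, Rab20 and Sult2b1 (0.985 to 0.977), and for Krt18 they were Ppan, Rwdd4a and Psmc5 (0.992 to 0.987). For Krt19 they were Swi5, Ube2l3 and Trir (0.990 to 0.989), for Krt20 Slc12a9, Qars and Tsc22d3 (0.985 to 0.977), for Krt23 Gm12663, Gm5529 and Pacsin3 (0.963 to 0.961), and for Krt80 Pop1, Psmd2 and Eif2b5 (0.992 to 0.990). No keratin was among them, and with 8 samples that share a division such values are descriptions.

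The other keratins of the table, most of them from stratified epithelia, hair and inner root sheath, set the members in their family. There were 24, of which limma called 2 higher and 1 lower, close to the shares of all genes (10.5% and 5.91%), and their median difference was 0.040. At an unadjusted p under 0.05 there were 7 higher and 1 lower, beside 18.4% and 12.7% of all genes. With the replicate block 8 were called higher and 1 lower, beside 18.2% and 13.9% of all genes. Leaving out any 1 of the pcDNA replicates 1, 2, 3 or 4 reduced the 3 calls to 1. Krt16 was lost without pcDNA replicate 1, 3 or 4 or pIGrhl2 replicate 1 or 3, Krt5 without pcDNA replicate 2, 3 or 4, and Krt28 without pcDNA replicate 1 or 2 or pIGrhl2 replicate 1, 3 or 4. Of the 24, 12 had a level that corresponds to under about 10 normalised reads once the length is added back, where the normalisation of the authors shrinks differences towards 0.

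Krt16, a type I keratin of activated and proliferating keratinocytes, went from 3.34 to 3.57 (log2 difference 0.23, SE 0.058, limma adjusted p = 0.0261), although its groups overlapped. Krt5, the type II keratin of basal keratinocytes, went from 2.25 to 2.37 (0.12, SE 0.031, limma adjusted p = 0.0264). Krt28, a type I keratin of the inner root sheath, fell by 0.055 near the lower limit of the table (limma adjusted p = 0.0344). The most abundant of the other keratins were Krt14 (8.18 in pcDNA and 8.25 in pIGrhl2), Krt79 (6.47 and 6.58) and Krt10 (5.51 and 5.52), and none of these was called. Krt6a, which is not chosen by rule but has the largest difference among all keratins, was at 0.59 (SE 0.24, limma adjusted p = 0.120, or 0.00710 with the replicate block), with 0.89 within replicates 1 and 2 and 0.28 within replicates 3 and 4. With all samples and no block, Krt7 was the only called keratin with a level in the top tiers, and with the replicate block Krt19 was called as well.

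**Figure D4:**
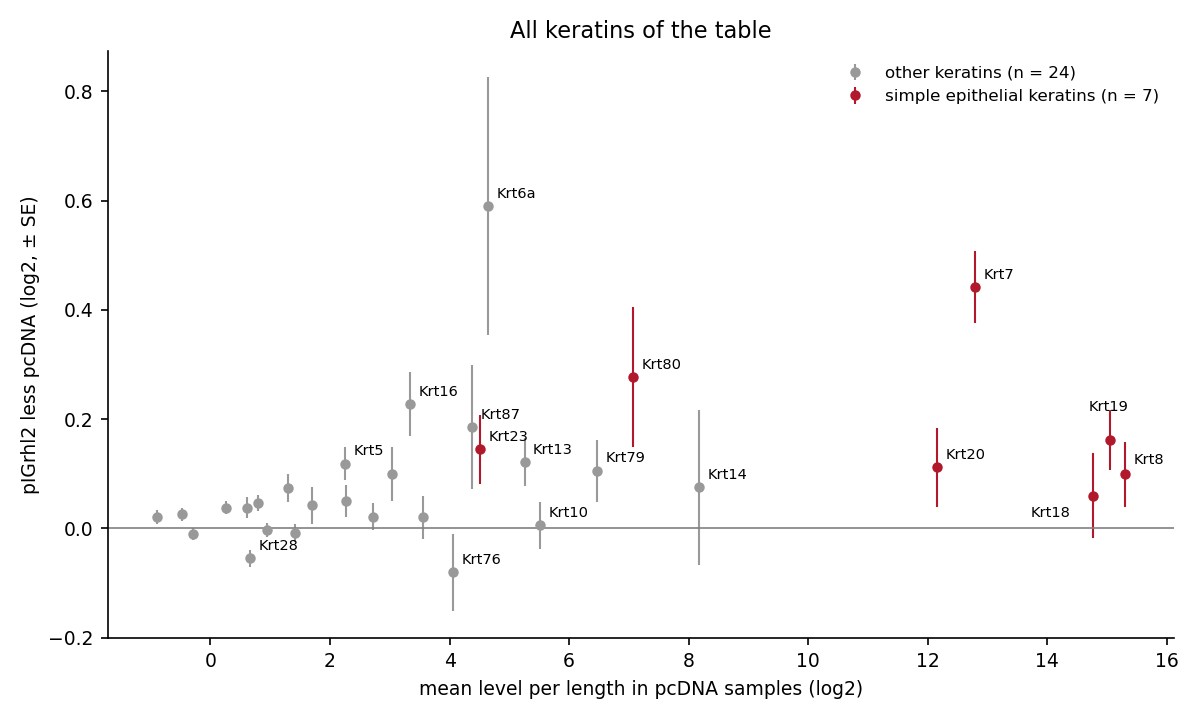
Difference of pIGrhl2 less pcDNA (log2, bars ± SE) against mean level per length in pcDNA samples (log2) for the 31 keratins of the table, with simple epithelial keratins in red and the others in grey. Krt7 stands at a level of 12.79 with a difference of 0.44, whereas most other keratins lie at low levels with differences near 0.

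Keratin filaments are anchored to cell junctions and to other filaments by plakins, plakophilins and plakoglobin. Of 14 such linkers and desmosomal genes 12 were in the table, and limma called 4 higher and 1 lower, beside 10.5% and 5.91% of all genes, with a median difference of 0.0046. Pkp1 and Pkp3, plakophilins of the desmosomal plaque, both rose by 0.60 (limma adjusted p = 0.00602 and 0.000313). Jup, which encodes plakoglobin, rose by 0.35 (limma adjusted p = 0.0134), and Perp, a desmosomal membrane protein, rose by 0.18 (limma adjusted p = 0.0329). Dsp, which encodes desmoplakin, the protein that ties keratins to the desmosome, fell by 0.28 (limma adjusted p = 0.0253). The replicate block gave 5 higher and 4 lower, beside 18.2% and 13.9% of all genes, and without pIGrhl2 replicate 1 or 3 the calls were 3. Dsp, the only lower call, was lost without pcDNA replicate 1 or without pIGrhl2 replicate 1, 3 or 4, and that of Perp without pcDNA replicate 2, 3 or 4 or pIGrhl2 replicate 1, 2 or 3. Pkp1, Pkp3 and Jup were called in all 19 alternatives.

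Of 16 proteins that bind or organise keratins 15 were in the table, and limma called 1 higher and 3 lower, beside 10.5% and 5.91% of all genes, with a median of -0.063. Sfn, the epithelial 14-3-3 protein, rose by 0.78 (limma adjusted p = 0.000131), whereas the 6 other 14-3-3 genes were not called. Ywhaz, among the latter, had a difference of -0.10 and was called lower with the replicate block (limma adjusted p = 0.0107). Pnn, a protein first described at desmosomes that also acts in splicing, fell by 0.52 (limma adjusted p = 0.0157). Sqstm1, the autophagy receptor found in keratin aggregates of liver disease, fell by 0.42 (limma adjusted p = 0.000876). Fbf1, a keratin-binding protein of junctions and the centriole, fell by 0.24 (limma adjusted p = 0.0197). With the replicate block 3 were higher and 6 lower, beside 18.2% and 13.9% of all genes.

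Of 18 genes of other intermediate filaments 17 were in the table, and limma called 6 higher and 2 lower, beside 10.5% and 5.91% of all genes. Vim, which encodes vimentin, the filament protein of mesenchymal cells, had a level close to that of Krt8 in pcDNA samples, at 15.28 ± 0.075, and fell to 14.92 ± 0.054, a difference of -0.37 (SE 0.043, limma adjusted p = 0.000614). The level of Vim less the summed level of the keratins was -1.52 ± 0.11 in pcDNA and -2.02 ± 0.019 in pIGrhl2, with no overlap. The neuronal filament genes Prph, Ina and Nefl and the gene of synemin, Synm, rose by 0.60, 0.27, 0.22 and 0.38 from levels of 4.72, 1.70, 3.41 and 3.99 (limma adjusted p = 0.00150, 0.00100, 0.0199 and 0.0287). Nes and Nefh were also called, with differences of 0.068 and 0.086 near the lower limit, and Iffo1 fell by 0.15 (limma adjusted p = 0.0474). Vim, Prph and Ina were called in all 19 alternatives, but Iffo1 in 4, and it was lost when any 1 sample other than pIGrhl2 replicate 4 was left out. Synm and Nefh were lost without pcDNA replicate 1, 3 or 4 or pIGrhl2 replicate 1, and Nefl without pIGrhl2 replicate 4. Without pcDNA replicate 1, 3 or 4 or pIGrhl2 replicate 1 the 8 calls were 5.

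**Figure D5:**
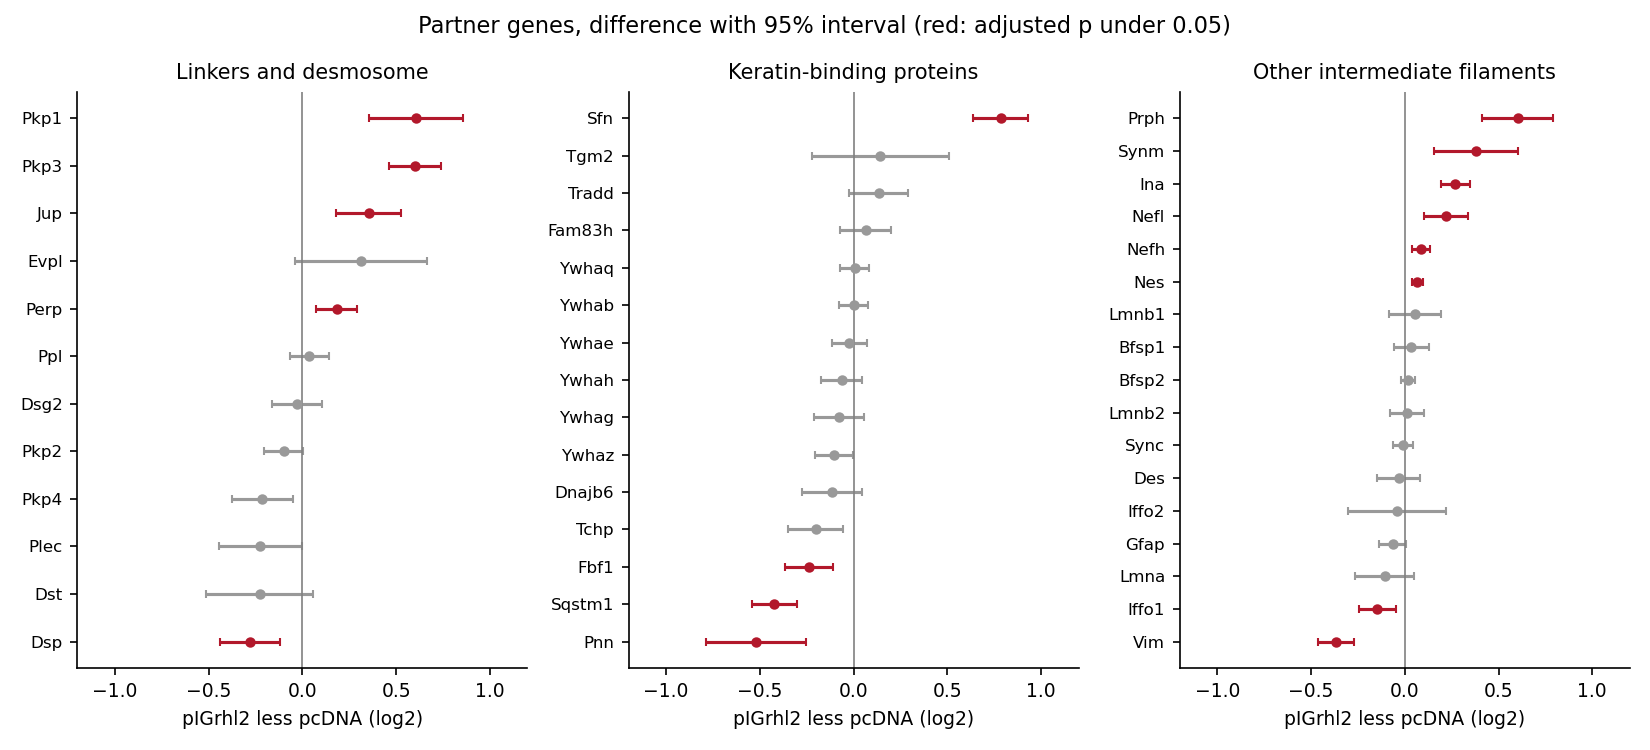
Difference of pIGrhl2 less pcDNA (log2) with its 95% interval for the linkers, the keratin-binding proteins and the other intermediate filaments of the table, in red where limma gave an adjusted p under 0.05. Pkp1 and Pkp3 at 0.60 stand opposite Dsp at -0.28, Sfn at 0.78 opposite Pnn at -0.52, and Prph at 0.60 opposite Vim at -0.37.

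Markers of the cell types that such a culture could hold were read beside the keratins. Of 4 hepatoblast markers 3 were in the table, and Dlk1 was not. Hnf4a (11.16), Foxa2 (10.33) and Afp (8.32) were well above the median gene in pcDNA. Of these Afp fell, by 0.21 (limma adjusted p = 0.0124). Of the 8 cholangiocyte markers, which include Krt7 and Krt19, 3 rose, Krt7 with Epcam (1.75) and Cldn4 (1.71), beside 10.5% of all genes, and with the replicate block 7 were called higher, beside 18.2%. Hepatocyte markers gave 0 calls of 6 by limma, beside 10.5% of all genes higher and 5.91% lower. At an unadjusted p under 0.05 they gave 0, beside 18.4% and 12.7%. All 6 lay below the median gene in pcDNA, 6.44: Alb at 5.25, Ttr at 4.91, Apoa1 at 3.90, Asgr1 at 1.67, Cyp2e1 at 1.50 and Cps1 at -0.65. The normalisation shrinks differences of the lowest of them towards 0. Of 6 stratified epithelial markers 5 were in the table, without Trp63, and 2 were called higher, beside 10.5% of all genes. These were Ivl (1.22) and Krt5, which rose by 0.12 from a level of 2.25 and was lost without pcDNA replicate 2, 3 or 4. Krt14, Krt1 and Krt10 were not called.

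Krt7 and Krt19 are also expressed by mesothelium, and 3 of 4 mesothelial markers rose together with Krt7, beside 10.5% of all genes. Msln, at 13.20 in pcDNA and 13.50 in pIGrhl2, rose by 0.30 (limma adjusted p = 0.00139), and Upk3b and Lrrn4 rose by 0.57 and 0.15, the latter not called without pcDNA replicate 1 or 3. Wt1, a defining marker, was near the lower limit in both groups, at 0.33 and 0.37, and was not called. The summed level of these 4 was 13.14 to 13.24 in pcDNA and 13.41 to 13.55 in pIGrhl2. On the linear scale this sum is almost wholly Msln, so it adds nothing on the other 3. Their part in the difference of Krt7 was not tested. Of 5 fibroblast, 4 endothelial and 5 blood markers, 2, 4 and 4 were in the table, without Col1a2, Dcn, Lum and Adgre1. These lists gave 0 calls by limma. At an unadjusted p under 0.05 they gave 0, 2 and 2, beside 18.4% of all genes higher and 12.7% lower. With the replicate block 1 of each was called higher: Col1a1 (limma adjusted p = 0.0281), Kdr (0.0411) and Cd68 (0.0205).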

How the data were processed

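Total RNA was sequenced as paired ends. Per the labels and methods, which open with public data so that their coverage of these samples was assumed, the authors aligned reads to mm10 with HISAT2 (2.2.1 in the submitters' processing notes), counted exons with HTSeq (0.9.1, union mode, no strand), removed genes with under 10 reads over all samples, and normalised with DESeq2 (1.40.2). The deposited values, named FPKM, were read as log2 values, rlog less log2 of the mean transcript length. This reading was checked on the lower limit of the genes, which ranged over 2.47 as deposited and 0.098 with length added back. rlog shrinks differences of low genes, and depth per sample is unknown. The count test of the study could not be run on such values. Linear models were fitted with limma (3.58.1, R 4.3.3) to all 18671 genes (2 groups, empirical Bayes with trend, Benjamini-Hochberg, called at an adjusted p under 0.05).

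Named genes were the 7 keratins, Grhl2, called keratins and the 3 most abundant others, called partner genes (up to 6 a list), the 3 genes most like each member and cell type markers. Members and lists were chosen with earlier results of these data known, and the promoter motifs after the files were read. Samples of the same replicate number deviated together (r = 0.474 to 0.645 over genes), so the numbers were taken as pairs and the block was fitted as an alternative. Different numbers reached r = 0.602, since replicates 1 and 2 differed from 3 and 4. Alternatives were scaling, block, batch term, each pair of replicates alone, each sample left out, variance model, low-value filter (mean of at least 0) and pseudocount of 1. Scripts were tested on simulated data.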

Additional observations from a re-analysis of the deposited data

Results flagged for a closer look

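Krt19 in pcDNA replicate 2 was at 14.86 and lay far from the other 3 pcDNA samples, which were within 15.10 to 15.11: its gap to the nearest of them was 0.977 of the range of the group, above Dixon's 95% critical value for 4 samples. It was 1 such sample among 32 sets of 4 values examined (the 7 members, Grhl2 and the sums and differences of members, in each group), where chance gives about 1 in 20. In that sample Krt7 (12.60), Krt8 (15.19), Krt20 (12.04) and Krt23 (4.38) were also the lowest of the pcDNA samples. Vim less the summed keratin level was the highest there, at -1.39. The share of Krt19 in the keratin pool was the lowest of the pcDNA samples there, at 28.3%.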

How the results depend on the processing

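Of the members, Krt7 was called higher in all 19 alternatives and Krt8, Krt18 and Krt20 in none. Krt18 reversed to -0.043 within replicates 3 and 4 and to -0.0049 without pIGrhl2 replicate 2 (-0.0049 to 0.11 over the samples left out), and within replicates 3 and 4 Krt8 reversed to -0.019 and Krt23 to -0.011. Krt19 (0.16 with all samples, not called) was called at 0.18 with equal upper quartiles, 0.19 with equal sums, 0.16 with the replicate block or a batch term, 0.13 within replicates 3 and 4 and 0.10 without pcDNA replicate 2 (0.10 to 0.18 over the samples left out). Krt80 was called at 0.28 with the replicate block or a batch term and at 0.39 within replicates 1 and 2, and Krt23 at 0.30 within replicates 1 and 2. Members called went from 1 to 2 with equal upper quartiles, equal sums, within replicates 3 and 4 and without pcDNA replicate 2 (1 to 2 over the samples left out), and to 3 with the replicate block, a batch term and within replicates 1 and 2. Other keratins called went from 3 to 6 with equal upper quartiles or sums (all 6 higher), 9 with the replicate block and 8 with a batch term, and 1 with replicates 3 and 4 averaged, an alternative chosen after seeing the data (1 to 3 over the samples left out). Linkers went from 5 to 9 with the block, 8 with a batch term or within replicates 3 and 4, and 3 within replicates 1 and 2 or with replicates 3 and 4 averaged (3 to 4 over the samples left out). Keratin-binding proteins went from 4 to 9 with the block and 8 with a batch term or within replicates 3 and 4. Other intermediate filaments went from 8 to 4 within replicates 1 and 2 and 5 with no mean-variance trend or replicates 3 and 4 averaged (5 to 7 over the samples left out). The cause was not tested. Over all genes, 63.9% of calls were higher, 75.9% with equal upper quartiles, 77.0% with equal sums and 56.7% with the replicate block. The replicate block changed no call of a member other than those of Krt19 and Krt80. The share of Krt7 in the keratin pool moved from 6.23% to 3.33% in pcDNA and from 7.70% to 4.17% in pIGrhl2 with the longest coding transcript as length, also chosen after seeing the data. Krt23 and the low keratins lie at levels where the normalisation can shrink differences towards 0. Depth per sample is unknown, and its part was not tested.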
